A study of Mus musculus with 16 samples.

Results

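The collagen chains were the 43 genes whose symbols have the form Col, a number, a and a number, and all 43 were listed in both the quadriceps and the brown fat table. They were 43 of 18657 genes listed in either table, 17539 in quadriceps and 18000 in brown fat. They comprised 11 fibrillar chains, 6 chains of type IV (the basement membrane collagen), 6 of beaded filaments and 20 others. RNA was sequenced from male C57BL/6 mice aged 10 weeks and kept at room temperature. Wild-type mice were compared with littermates homozygous for uORF-TAA, an allele of Ppargc1a, the gene of the transcriptional coactivator PGC-1alpha. The allele is named for an upstream open reading frame (uORF) of that gene, and the labels give neither the base change nor the number of lines. Each genotype had 4 libraries in each tissue, 16 in all. The authors' deposited tables hold means and genotype comparisons only, so no chain can be shown library by library, and levels have no standard deviation here.

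Collagens are proteins of 3 chains wound into a triple helix, in which glycine has to recur at a fixed spacing along the helix. Fibrillar collagens build the tensile fibrils of tendon, muscle connective tissue and the stroma of fat. Type IV collagen forms the network of the sheets that surround each muscle fibre, adipocyte and capillary. Type VI collagen assembles into beaded filaments just outside those sheets, and FACIT collagens (fibril-associated collagens with interrupted triple helices) sit on fibril surfaces or at junctions. Fibroblasts make most fibrillar collagen, while endothelial cells, muscle fibres, mural cells and adipocytes contribute to basement membranes.

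The repeating glycine can be read in the genes. The first internal coding exon of exactly 54 bases is shown for 6 chains on which the results turn, in the direction of transcription and with in-frame glycine codons (GGN, where N is any base) in capitals. The sequences are from the GENCODE vM21 transcripts of the GRCm38 build. The 4 fibrillar chains come first, then type IV and type VI.
Col1a1, chr11:94939904-94939957, plus strand: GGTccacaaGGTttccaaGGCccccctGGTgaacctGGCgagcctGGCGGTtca
Col3a1, chr1:45325360-45325413, plus strand: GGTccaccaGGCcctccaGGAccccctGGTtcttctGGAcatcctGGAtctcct
Col5a2, chr1:45434892-45434945, minus strand: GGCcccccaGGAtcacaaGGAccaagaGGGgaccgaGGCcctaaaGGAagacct
Col27a1, chr4:63231792-63231845, plus strand: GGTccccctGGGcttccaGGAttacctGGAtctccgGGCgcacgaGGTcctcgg
Col4a1, chr8:11245211-11245264, minus strand: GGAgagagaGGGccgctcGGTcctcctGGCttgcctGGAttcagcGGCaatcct
Col6a3, chr1:90795915-90795968, minus strand: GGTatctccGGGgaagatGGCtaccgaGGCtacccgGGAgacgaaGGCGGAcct
Each of these exons begins with a glycine codon, and 6 of its codons, or 7 in Col1a1 and Col6a3, encode glycine.

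The exon pattern differed between the classes, although the rule that chose the chains used only their names. Of 625 internal coding exons in the longest transcripts of the 11 fibrillar chains, 525 (84.0%) had a length divisible by 9, the size of a repeat of 3 codons, and 305 had exactly 54 bases. In the type IV chains, whose helices are interrupted, 134 of 284 (47.2%) were divisible by 9 and 12 had 54 bases. Beaded filament chains had 104 of 203 (51.2%) and FACIT chains 227 of 413 (55.0%). Among 21831 other protein-coding genes the share divisible by 9 was 13.7%, and 0.432% of exons had 54 bases. Col8a1, Col8a2 and Col10a1 had 0 internal coding exons and do not enter these counts.

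Col4a1 and Col4a2, whose products form the main type IV trimer, lie on opposite strands with start sites 21 bases apart in RefSeq (GRCm38.p6). Col4a2, on the plus strand, starts at the lower coordinate, so the first 22 bases of the genes overlap. The stretch that holds both start sites is shown because the pair's values lie close together, with the letters GGGCGG, a GC box, in capitals.
Col4a1 and Col4a2 start sites, chr8:11312805-11312826, plus strand: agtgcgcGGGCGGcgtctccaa
GGGCGG, searched on both strands in the 250 bases before each start site, was present in 21 of 37 windows of 34 listed collagen genes, and in 32.7% of 32851 windows of all genes. The stretch shown runs downstream from the start site of each gene, so its GGGCGG lies outside the 250 bases before either of these start sites. A match to these letters is a description and not evidence of binding.

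The tissue labels were checked first. Ucp1 and Cidea, which mark brown adipocytes, had mean normalized counts of 47561 and 37401 in brown fat and of 6.70 and 59.2 in quadriceps in the authors' deposited tables. The muscle genes Myh4 and Ckm had means of 2142530 and 284920 in quadriceps. They stood at 42699 and 11583 in brown fat, so muscle transcripts were present in the brown fat libraries. The adipocyte genes Adipoq and Plin1 had means of 18988 and 9735 in brown fat. In quadriceps they stood at 609 and 176, so adipocyte transcripts were present in the quadriceps libraries too. Estimated depth per library was 11.4 M to 31.8 M counts in quadriceps (median 22.0 M). Brown fat libraries reached 17.8 M (median 11.7 M).

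Levels were compared between chains as the mean normalized count per 1000000 of the table's summed means (CPM) and per kb of the longest coding transcript. Collagen chains together held 774 CPM in quadriceps and 2482 CPM in brown fat. The tables were normalized separately and no library values enter, so levels set across tissues are descriptions without a test. Ratios of plain mean counts, brown fat over quadriceps, are lower than those of CPM by a factor of 1.64. The direction between tissues depends on that scaling for 13 of 43 chains, Col1a1, Col1a2, Col5a2, Col4a5, Col4a6, Col6a5, Col28a1, Col12a1, Col14a1, Col16a1, Col9a2, Col17a1 and Col8a1, which are higher in brown fat in CPM and lower by mean count. Fibrillar chains made up 51.3% of the summed collagen level per kb in quadriceps and 30.9% in brown fat. Type IV chains made up 29.1% in quadriceps and 57.6% in brown fat. The order of the leading classes was therefore the opposite in the tissues. Beaded filament chains held 9.48% and 7.12%, and FACIT chains 5.56% and 1.85%.

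**Figure D1:**
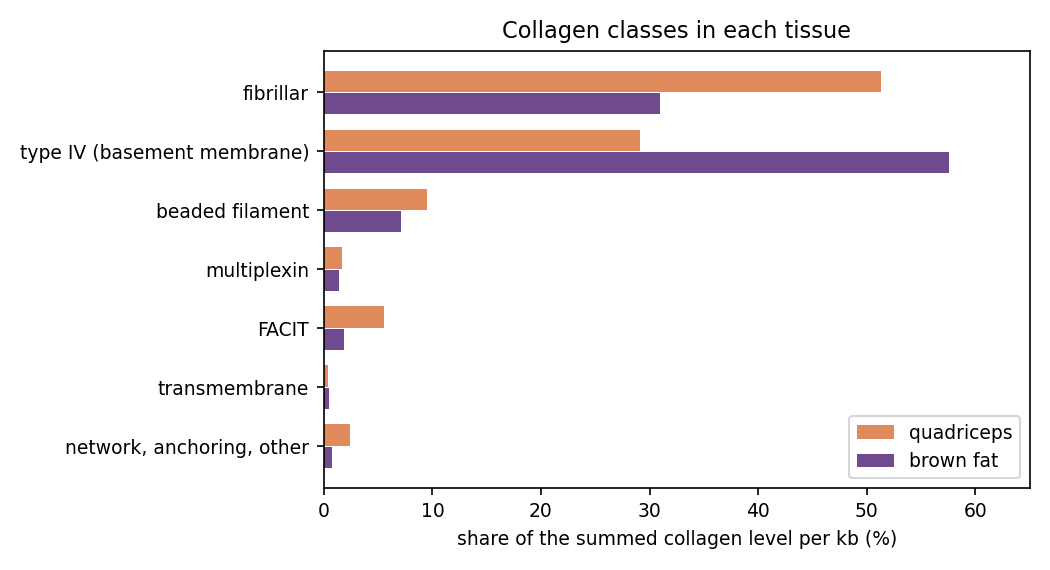
Share of the summed collagen level per kb (%) held by each class of chains, by tissue, from mean counts over all 8 libraries of a tissue. The fibrillar bar is the longest in quadriceps (51.3%) and the type IV bar in brown fat (57.6%).

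Among fibrillar chains, the highest level per kb in quadriceps was that of Col1a2 at 23.0 CPM per kb, followed by Col3a1 at 18.7 and Col1a1 at 13.0. Col1a1 and Col1a2 encode the chains of type I collagen, and Col3a1 the chain of type III, which mixes with type I in elastic tissues. In brown fat the first was Col3a1 at 31.5 CPM per kb, followed by Col1a2 at 27.1, Col27a1 at 21.0, Col5a3 at 16.1 and Col1a1 at 15.5. Col27a1 encodes a fibrillar chain best known from cartilage. Its share of the summed means was 0.760 CPM in quadriceps and 160 CPM in brown fat, a ratio of 210, the widest of the 43 chains in that direction. The type V and XI chains, which set fibril diameter, differed among themselves. Col5a1 and Col5a2 had brown fat to quadriceps ratios in CPM of 1.84 and 1.46 (0.889 by mean count for Col5a2), Col5a3 4.19 and Col11a2 7.20. Col11a1, Col24a1 and Col2a1, the type II chain of cartilage, went the other way, being 4.33, 10.2 and 16.0 times higher in CPM in quadriceps. The Col2a1 ratio rests on means of 49.1 and 1.86. Its standard error in quadriceps was unusually small for that mean, 0.0451 against a median of 0.134. How its counts were spread over the libraries was not analysed here.

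The type IV chains split by pair. Col4a1 stood at 21.5 and Col4a2 at 14.3 CPM per kb in quadriceps, and at 123 and 104 in brown fat, where they were the first and second of all collagen chains. As a share of summed means Col4a1 was 5.74 times and Col4a2 7.25 times higher in brown fat. Col4a3 and Col4a4, whose products join Col4a5 in the membranes of kidney and lung, stood at 0.584 and 0.329 CPM per kb in quadriceps and at 0.308 and 0.200 in brown fat. Col4a5 was at 0.403 and 0.418, and Col4a6 at 0.0577 and 0.0764. The ratio of Col4a1 to Col4a3 per kb was 36.8 in quadriceps and 401 in brown fat.

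Of the beaded filament chains, Col6a1 stood at 6.51, Col6a2 at 3.03 and Col6a3 at 1.40 CPM per kb in quadriceps. These 3 chains form the usual type VI trimer. The same order held in brown fat, at 16.3, 7.81 and 2.96, and the ratio of Col6a1 to Col6a2 was 2.15 in quadriceps and 2.09 in brown fat. Col28a1, a chain known from the sheaths of peripheral nerve, stood at 0.928 and 0.987. Col6a5 and Col6a6, which can take the place of the third chain, stood at 0.0190 and 0.220 in quadriceps.

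Partner chains of other types kept or changed their ratio. Col1a1 to Col1a2 was 0.566 per kb in quadriceps and 0.570 in brown fat, although type I collagen holds more alpha1 than alpha2 chains. Col8a1 to Col8a2, of the hexagonal networks under endothelia, was 3.25 and 16.7, with a mean count of only 3.88 for Col8a2 in brown fat.

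The FACIT and remaining chains held the sharpest tissue contrasts beside Col27a1. Col22a1, found at junctions of muscle with tendon, had a mean normalized count of 630 in quadriceps and 3.11 in brown fat in the authors' deposited tables, and was 123 times higher in CPM in quadriceps. Col19a1 was 5.07 times higher in quadriceps, while Col20a1 was 16.9 times higher in brown fat, with means of 26.4 and 272. Col12a1 and Col14a1, which coat fibrils, had brown fat to quadriceps ratios of 1.19 and 1.06 in CPM and of 0.723 and 0.648 by mean count. Both multiplexins, the proteoglycan collagens Col15a1 and Col18a1 of basement membrane zones, were higher in CPM in brown fat, by 1.83 and 3.93 times. Col7a1, the anchoring fibril chain best known from skin, had a ratio of 0.874 in CPM and Col8a1 one of 1.49, or 0.910 by mean count. Transmembrane chains were low, with means of 2.62 to 24.8 in quadriceps and 1.06 to 46.0 in brown fat.

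**Figure D2:**
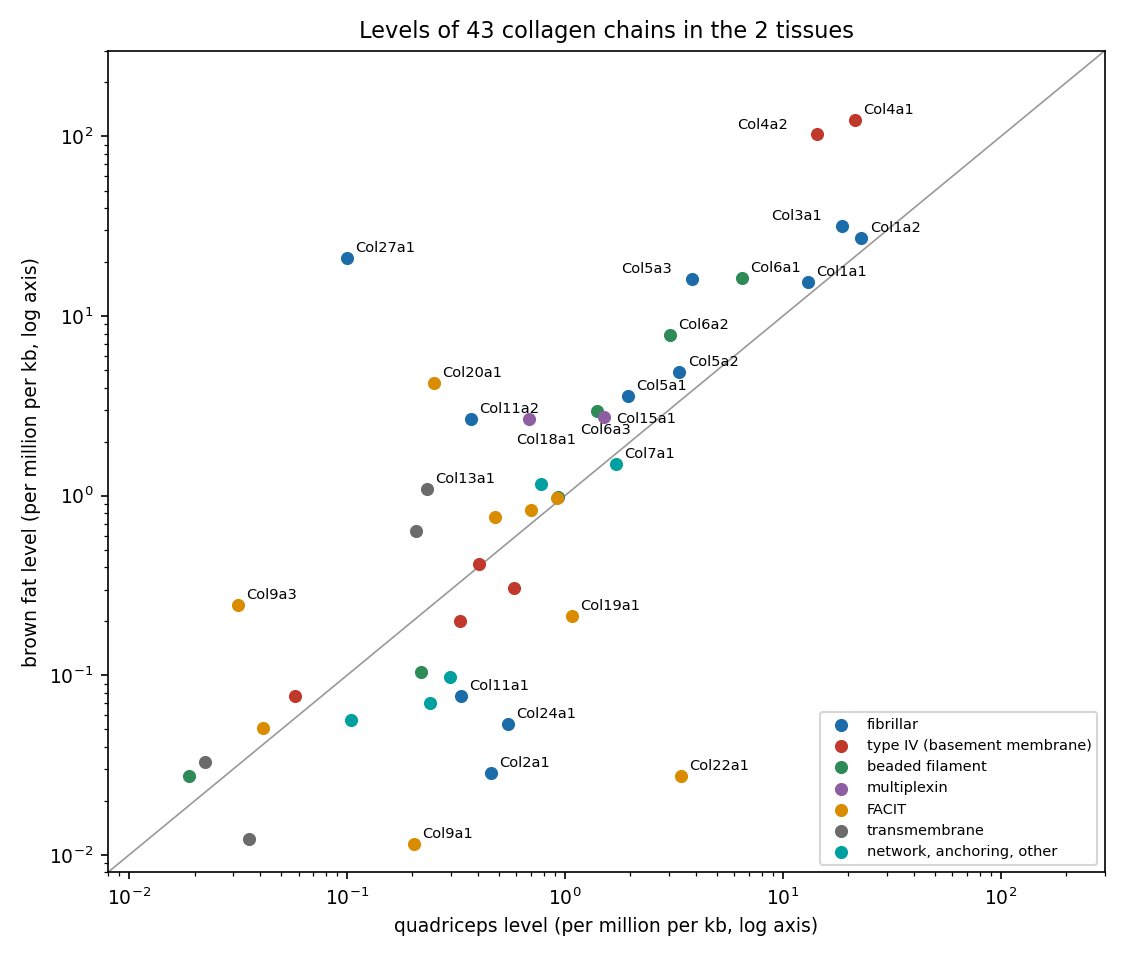
Level of each of the 43 collagen chains in quadriceps (x axis) and brown fat (y axis), as CPM per kb of transcript, both axes logarithmic; colours are classes and the line marks equal levels. Col27a1 (210 times higher in brown fat) and Col22a1 (123 times higher in quadriceps) lie farthest from the line on this scale. By mean count the ratios are 128 and 202, so that Col22a1 is then the farther.

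The genotypes were then compared within each tissue. Fold changes are uORF-TAA over wild type, taking the genotype named first by a table as the numerator, which no header states. Were that wrong for a tissue, every direction in that tissue would turn over. Errors are the deposited standard errors, and the fold changes appear to be shrunken towards 0. In bulk tissue, fewer cells of a type and less RNA per cell cannot be told apart.

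In quadriceps, the deposited adjusted p was under 0.05 for 0 of 43 chains, where 0% of all 17521 tested genes passed. At an unadjusted p under 0.05, 0 chains were higher and 1, Col12a1, was lower, which is 2.33% of the chains. The background is 0.942% of genes higher and 1.06% lower, 2% in all, so the share of chains lay near it. Log2 fold changes were above 0 for 21 of 43 chains, with a median of -0.0013, against 51.7% of all genes and a median of 0.0024. Among chains with a mean of at least 50, 14 of 26 were above 0, against 50.9% of genes with such a mean, and with a mean of at least 10 it was 20 of 36, against 51.8%. When the Wald statistics were rescaled to the spread of all genes (an empirical null), 2 chains had an unadjusted p under 0.05, Col12a1 below 0 and Col3a1 above, against 4.41% of genes. The collagen family as a whole was therefore placed about the centre of all genes in muscle.

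The classes are given apart. In the authors' deposited table of quadriceps, 7 of 11 fibrillar chains were above 0 with a median log2 fold change of 0.016. Of the type IV chains 1 of 6 was above 0, with a median of -0.093, and of the beaded filament chains 4 of 6, with a median of 0.14. FACIT chains had 3 of 9 above 0, multiplexins 1 of 2, transmembrane chains 1 of 4, and the chains of networks, anchoring fibrils and others 4 of 5.

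Col3a1 had the largest positive value among the chains of quadriceps in the authors' deposited table, a log2 fold change of 0.24 ± 0.13 (SE) at a mean count of 2185, with an unadjusted p of 0.0732 and an adjusted p that rounded to 1.00. Its 95% interval, a normal one on the deposited scale, ran from -0.02 to 0.50. Of the type I chains, Col1a2, at a mean of 2584, had 0.02 ± 0.13 (SE) and Col1a1 0.07 ± 0.13 (SE) in the authors' deposited table. Their intervals overlap that of Col3a1 widely, and differences between chains were not tested. Col3a1 lies next to Col5a2 in the genome, and Col5a2 and Col5a1 were each at 0.10 there. Col5a3 was at -0.0021, Col11a1 at -0.05 and Col24a1 at -0.08. Of fibrillar chains under a mean of 50, Col27a1, Col2a1 and Col11a2 ranged from -0.02 to 0.10.

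Col4a1 was at -0.10 ± 0.12 (SE) and Col4a2 at -0.11 ± 0.12 (SE) in quadriceps, close to each other, with deposited means of 2992 and 1941. Neither passed the test, the smaller unadjusted p being 0.359 for Col4a2. Col4a3 was at -0.15, Col4a4 at -0.06 and Col4a5 at 0.01 in the authors' deposited table. Col4a6 was at -0.08 with a mean of 8.07. Mural cells are the smooth muscle cells of vessels and the pericytes that share a basement membrane with capillaries. Of 10 fixed mural cell markers 3 were above 0 in quadriceps, with a median of -0.11 and a summed mean count of 64006. Des and Abcc9, which muscle fibres also express, make up 93.4% of that sum, and the other 8 markers sum to 4213, with 2 of 8 above 0 and a median of -0.16. At an unadjusted p under 0.05, 4 of the 10 were lower and 0 higher, against 1.06% and 0.942% of all genes. The 4 were Myh11, Acta2, Tagln and Mylk. Myh11 among them, a smooth muscle myosin, was at -0.35 ± 0.10 (SE) with an adjusted p of 0.660. The 3 markers above 0 were Rgs5, at 0.0060 with a mean of 1898, Cspg4, at 0.20, and Abcc9, at 0.09. Pdgfrb was at -0.08, Cnn1 at -0.13 and Des at -0.08, so the markers did not move as 1 set. The part of mural cells in the type IV values was not tested.

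The type VI chains lay side by side in quadriceps. Col6a1 was at 0.14 ± 0.13 (SE), Col6a2 at 0.15 ± 0.13 (SE) and Col6a3 at 0.16 ± 0.13 (SE) in the authors' deposited table. Col6a6 was at 0.18 with a mean of 40.6. The means of the 3 main chains were 562, 297 and 299, and none of the 4 passed the test, their unadjusted p-values running from 0.180 to 0.280. Col28a1 was at -0.17 ± 0.13 (SE) with a mean of 82.6. Of 10 fixed Schwann cell markers, the glia of peripheral nerve, 0 were above 0 in quadriceps, with a summed mean count of 1493 and none of them at 0. Their part in the Col28a1 value was not tested.

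Col12a1, a FACIT chain that bridges fibrils in tendon and muscle fascia, had the smallest p of the 43 chains in quadriceps. The authors' deposited table gave a log2 fold change of -0.27 ± 0.13 (SE), 0.828-fold, at a mean count of 170, with an unadjusted p of 0.0344. Its adjusted p over all genes rounded to 1.00, so it was not called. The interval ran from -0.52 to -0.02. Of 7 fixed tendon markers 2 were above 0 in quadriceps, with a median log2 fold change of -0.11 and a summed mean count of 3488. The tendon regulator Mkx among them was at -0.30 with a mean of 12.9. The 2 markers above 0 were Scx, at 0.15 with a mean of 11.9, and Comp, at 0.15 with a mean of 131. The part of tendon tissue in the Col12a1 value was not tested.

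The remaining named chains of quadriceps had intervals that included 0. Among FACIT chains of the authors' deposited table Col19a1 was at 0.18, Col22a1 at 0.04 ± 0.13 (SE), Col14a1 at 0.03, Col16a1 at -0.09 and Col20a1 at -0.13. The multiplexins Col15a1 and Col18a1 were at 0.11 ± 0.13 (SE) and -0.17 ± 0.13 (SE) there. Col8a1 was at 0.18 ± 0.13 (SE) and Col7a1 at -0.07 ± 0.11 (SE) in the same deposited table. Transmembrane chains ranged from -0.06 to 0.10, with Col23a1 at 0.10 ± 0.13 (SE) and Col13a1 at -0.0013 ± 0.12 (SE). The unadjusted p-values of these chains were at least 0.160, the value of Col8a1.

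In brown fat, the deposited adjusted p was under 0.05 for 0 of 43 chains, where 0.0863% of 9272 genes passed. An adjusted p was given for 18 of the 43 chains, since the table gives none below a mean count of 106. At an unadjusted p under 0.05, 0 of 43 chains were higher and 0 lower, against 0.918% and 1.15% of genes, 2.07% in all. Log2 fold changes were above 0 for 31 of 43 chains, with a median of 0.063, against 51.2% of genes and a median of 0.0015. Among chains with a mean of at least 50, 20 of 22 (90.9%) were above 0, against 53.6% of such genes, and with a mean of at least 10 it was 26 of 29, against 53.4%. The 2 chains below 0 were Col27a1 and Col28a1. The chains are not independent of one another, and this count has no test. Under the empirical null Col6a1, Col6a2 and Col6a3, 3 chains, had an unadjusted p under 0.05, against 5.4% of genes, and none was called after adjustment.

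Type VI collagen had the largest values in brown fat. In the authors' deposited table Col6a3 was at 0.23 ± 0.13 (SE), Col6a2 at 0.22 ± 0.13 (SE) and Col6a1 at 0.18 ± 0.11 (SE), at means of 384, 466 and 858. Their unadjusted p-values were 0.0724, 0.0811 and 0.105, the smallest of the 43 chains, and each adjusted p rounded to 1.00. The interval of Col6a3 ran from -0.02 to 0.48 and that of Col6a2 from -0.03 to 0.46. The 3 chains of the trimer were thus near one another in each tissue. Col6a6 was at 0.12 with a mean of 11.7, and Col28a1 at -0.12 ± 0.13 (SE) with a mean of 53.6. Of the 10 Schwann cell markers 1 was above 0 in brown fat, with a summed mean count of 4405, and their part in the Col28a1 value was not tested.

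Fibrillar chains of brown fat were above 0 in 7 of 11 cases and in 7 of 8 with a mean of at least 50, with a median log2 fold change of 0.074 over the 11. In the authors' deposited table Col5a1 was at 0.10, Col1a1 at 0.09, Col1a2 at 0.08, Col3a1 at 0.08 ± 0.11 (SE), Col11a2 at 0.08, Col5a3 at 0.07 and Col5a2 at 0.01. Col27a1, whose level differed most towards brown fat, had the opposite sign at -0.10 ± 0.10 (SE), a mean of 2050 and an interval from -0.29 to 0.09. The values of Col3a1, Col1a2 and Col1a1 in brown fat lay within 0.01 of one another.

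Type IV chains of brown fat were above 0 in 5 of 6 cases, with a median of 0.069. Col4a1 and Col4a2, the most abundant collagens there with means of 10460 and 8582, were at 0.07 ± 0.10 (SE) and 0.08 ± 0.09 (SE) in the authors' deposited table. They were again close to each other, and their intervals ran from -0.11 to 0.26 and from -0.09 to 0.25. Col4a5 was at 0.07, Col4a3 at 0.05 and Col4a4 at -0.01, each with a mean under 50.

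Both multiplexins were above 0 in brown fat, with Col15a1 at 0.13 ± 0.13 (SE) and Col18a1 at 0.10 ± 0.12 (SE) in the authors' deposited table. FACIT chains were above 0 in 7 of 9 cases. Col20a1, the FACIT chain of highest mean, was at 0.07 ± 0.12 (SE), Col12a1 at 0.03 ± 0.13 (SE), Col16a1 at 0.07 and Col14a1 at 0.02 in the same deposited table. Col19a1 and Col22a1, both scarce in brown fat, were at 0.08 and -0.04. Col7a1 and Col8a1 were at 0.13 ± 0.13 (SE) and 0.10 ± 0.13 (SE), and transmembrane chains were above 0 in 3 of 4 cases, with Col23a1 at 0.05 ± 0.13 (SE) and Col13a1 at 0.12 ± 0.12 (SE). The smallest unadjusted p of the chains named here was 0.312, that of Col15a1.

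**Figure D3:**
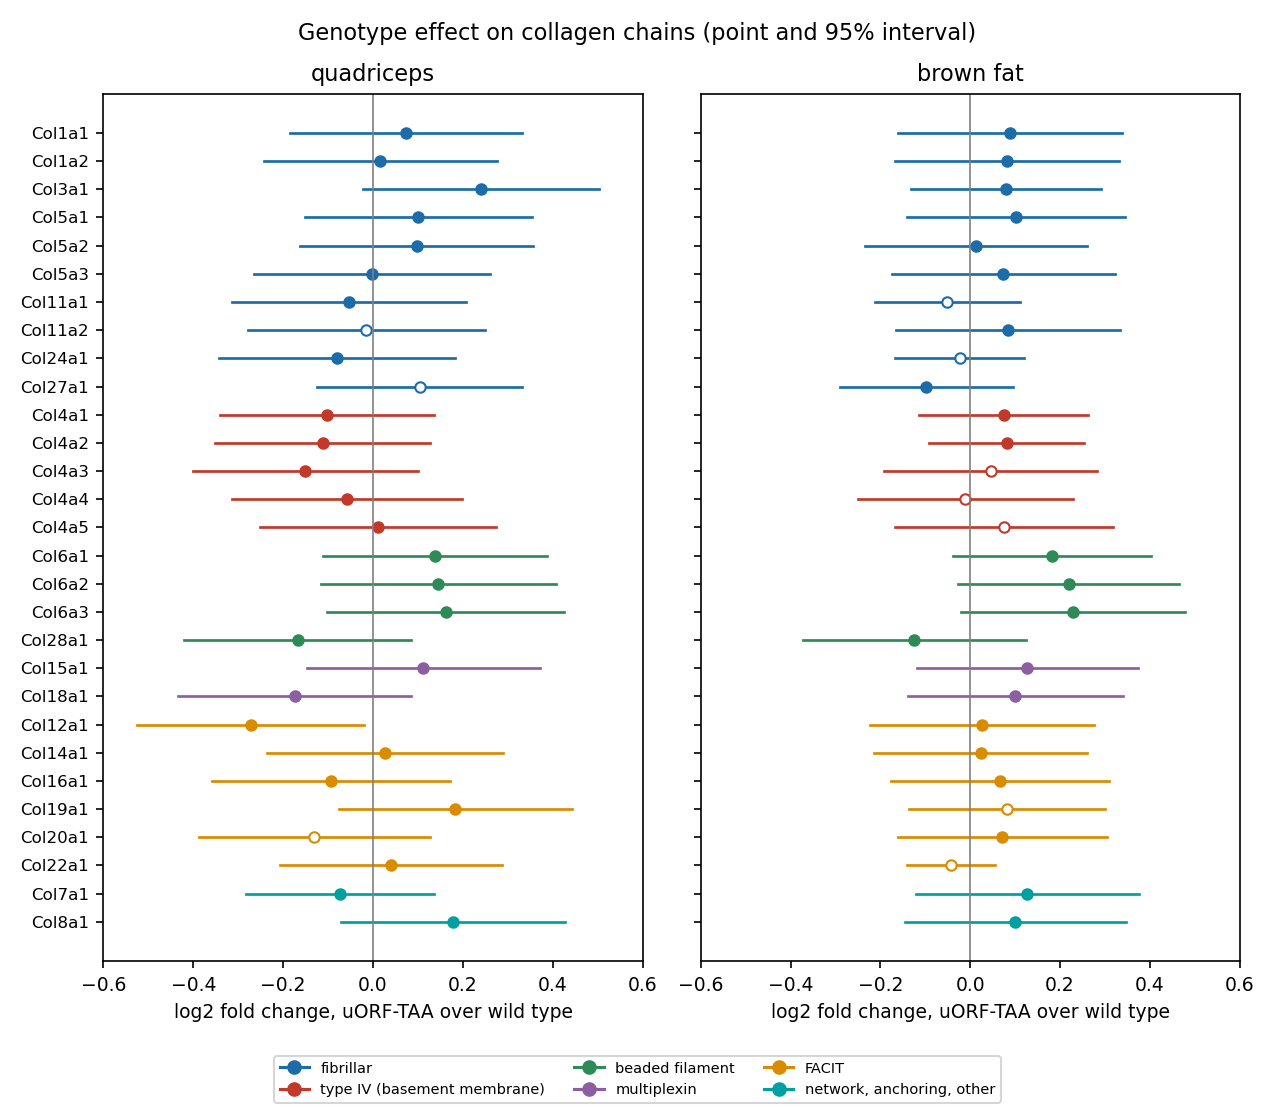
Log2 fold change (x axis, uORF-TAA over wild type) with its 95% interval for the 29 chains with a mean count of at least 50 in either tissue; filled points have such a mean in that tissue, open points do not, and colours are classes. In quadriceps the interval of Col12a1 leaves out 0, and in brown fat every interval includes it.

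**Figure D4:**
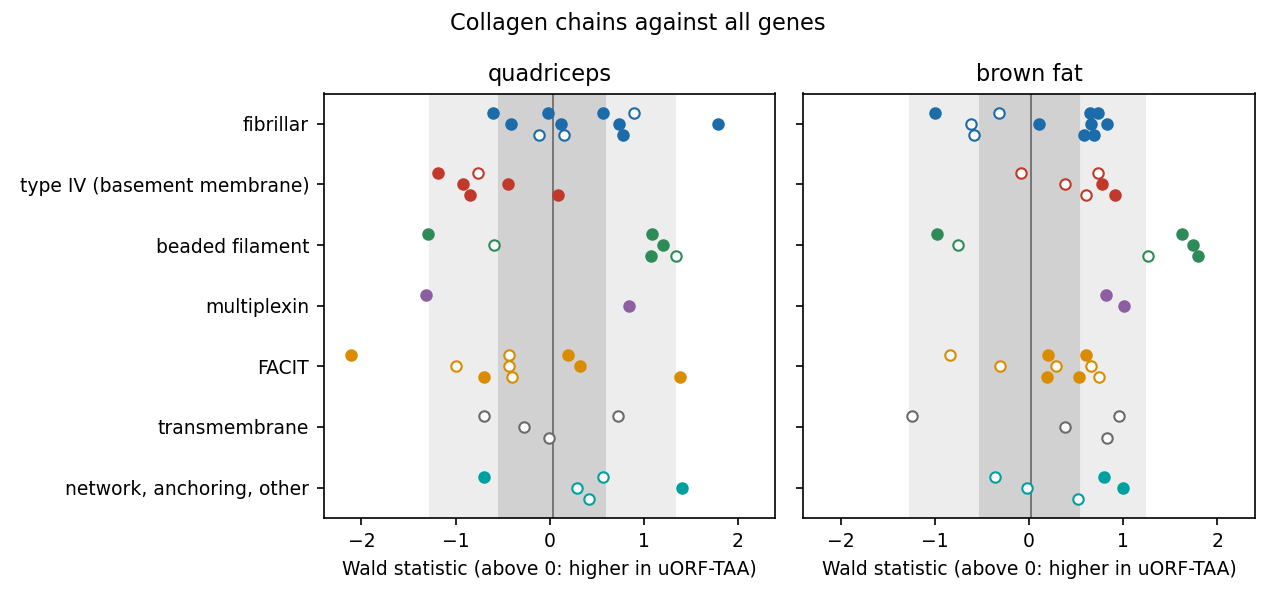
Wald statistic (log2 fold change over its standard error) of all 43 chains by class and tissue; filled points have a mean of at least 50, the dark band spans the middle quartiles of all genes, the light band the 5th to 95th percentile, and the line their median. In quadriceps the points fall on both sides of the line, and in brown fat 20 of 22 filled points lie above 0.

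The genotype effect was then compared between the tissues for each chain, as brown fat less quadriceps. No chain differed at an adjusted p of 0.05 by the normal test of the difference, with 0% of 16844 genes called. At an unadjusted p under 0.05 the count was 0 of 43, against 1.16% of genes. Both statements rest on the brown fat sign. With that table read the other way 0 chains were called, but 2 of 43 had an unadjusted p under 0.05, against 3.08% of genes. These were Col6a3, with a difference of -0.39 ± 0.19 (SE) and a p of 0.0351, and Col6a2, with -0.36 ± 0.18 (SE) and a p of 0.0469. In the reading used here Col12a1 had the smallest unadjusted p (0.0985), with a difference of 0.30 ± 0.18 (SE) and an interval from -0.06 to 0.65. Col18a1 followed at 0.27 ± 0.18 (SE). For Col4a1 and Col4a2, which had opposite signs in the tissues, the differences were 0.18 ± 0.16 (SE) and 0.19 ± 0.15 (SE), with intervals from -0.13 to 0.48 and from -0.10 to 0.49. For Col6a1, Col6a2 and Col6a3 the differences were 0.04, 0.07 and 0.07, with upper bounds of 0.38, 0.43 and 0.43. The test treats the tissues as independent, and the labels do not say whether they came from the same mice.

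Genes that modify, process, break down and bind collagen were described from fixed lists, and 0 of them passed an adjusted p of 0.05 in either tissue. Of all genes with an adjusted p, 0% of 17521 passed in quadriceps and 0.0863% of 9272 in brown fat. In brown fat an adjusted p was given for 12 of 17 modification and folding genes and 7 of 13 processing genes. It was given there for 6 of 11 breakdown genes and 4 of 9 receptors. Of the modification and folding genes 13 of 17 were above 0 in quadriceps and 12 of 17 in brown fat, with medians of 0.029 and 0.041 on the log2 scale. Colgalt2, which adds galactose to hydroxylysine, was at 0.21 in the authors' deposited table of quadriceps, and the prolyl hydroxylase gene Lepre1 at -0.12. In the brown fat table Leprel1 was at -0.20, Glt25d1 at -0.15 and the lysyl hydroxylase gene Plod1 at 0.10, as the authors deposited it.

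Processing and crosslinking genes were above 0 in 7 of 13 cases in quadriceps and 9 of 13 in brown fat. Adamts2, which cuts the amino end off procollagen, was at -0.25 ± 0.13 (SE) in quadriceps and 0.20 ± 0.12 (SE) in brown fat in the authors' deposited tables. Lox, which crosslinks collagen, was at -0.25 in quadriceps with a mean of 1188 and an unadjusted p of 0.0625, and Loxl4 at -0.23. In brown fat Loxl2 was at 0.18 and Adamts14 at 0.17.

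Breakdown genes and their inhibitors were above 0 in 7 of 10 cases in quadriceps and 7 of 11 in brown fat. Mmp13, at 0.02 in quadriceps without a p-value, is left out of the 10. In the authors' deposited tables Timp4, an inhibitor of matrix metalloproteases, was at -0.22 in quadriceps and -0.21 in brown fat, and Ctsk, a protease that cuts helical collagen, at 0.20 in each. Timp3 was at -0.20 in quadriceps, and Mmp14, a membrane collagenase, at 0.11 in brown fat. Collagen receptors were above 0 in 4 of 9 cases in quadriceps, where the integrin gene Itga1 was at 0.15, and in 5 of 9 in brown fat, where Ddr2, a receptor kinase for fibrillar collagen, was at 0.08. At an unadjusted p under 0.05 the receptor list held 1 gene in quadriceps, Itga2, which was lower, against 2% of all genes, 1.06% being lower. Itga2 had a mean of only 7.08, where a narrow standard error does not stand for a precise measurement.

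Of the fibril-associated matrix genes 3 of 7 were above 0 in quadriceps and 5 of 8 in brown fat. The proteoglycan gene Bgn was at 0.17 and 0.10, Postn at 0.17 in quadriceps, and Lum at 0.18 in brown fat, in the authors' deposited tables. In quadriceps Lum was at 0.27 with a mean of 186 but had no p-value, so it does not enter the 3 of 7. TGF-beta pathway genes were above 0 in 5 of 10 and 7 of 10 cases. Tgfbr2, a receptor of this inducer of collagen genes, was at -0.27 ± 0.09 (SE) in brown fat with an unadjusted p of 0.00327, and was not called after adjustment (adjusted p of 0.665).

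Markers of cells that make collagen are given beside these values. Fibroblast markers were above 0 in 2 of 9 cases in quadriceps and 4 of 10 in brown fat, with summed mean counts of 21088 and 33535. The quadriceps values leave out Lum, which was above 0 but had no p-value there. Endothelial markers were above 0 in 4 of 10 and 7 of 10 cases, with summed means of 5928 and 22710. Mural cell markers were above 0 in 3 of 10 and 5 of 10 cases, and adipocyte markers in 8 of 10 in each tissue. Des and Abcc9 made up 51.5% of the summed mural means in brown fat. Without them 5 of 8 mural markers were above 0 there, with a median of 0.10. Summed levels per genotype were not analysed here. The part of any of these cell types in the values of brown fat collagens was not tested.

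The precision of the values depended on the mean count. Because the deposited standard error falls towards 0 in scarce genes, narrow intervals of the 7 chains under a mean of 10 in quadriceps and 14 in brown fat do not stand for precise measurements. Col2a1 and Col10a1, both cartilage chains, stood apart in quadriceps. Col2a1 had a standard error of 0.0451 at a mean count of 49.1, where 790 genes of similar mean had a median of 0.134 and 3 had a smaller one. Col10a1 had 0.0243 at a mean of 19.5, where the median of 628 genes was 0.127 and 0 had a smaller one. How their counts were spread over the 8 libraries was not analysed here. On the log2 scale Col2a1 was at 0.0068 and Col10a1 at 0.01 in the authors' deposited table.

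**Figure D5:**
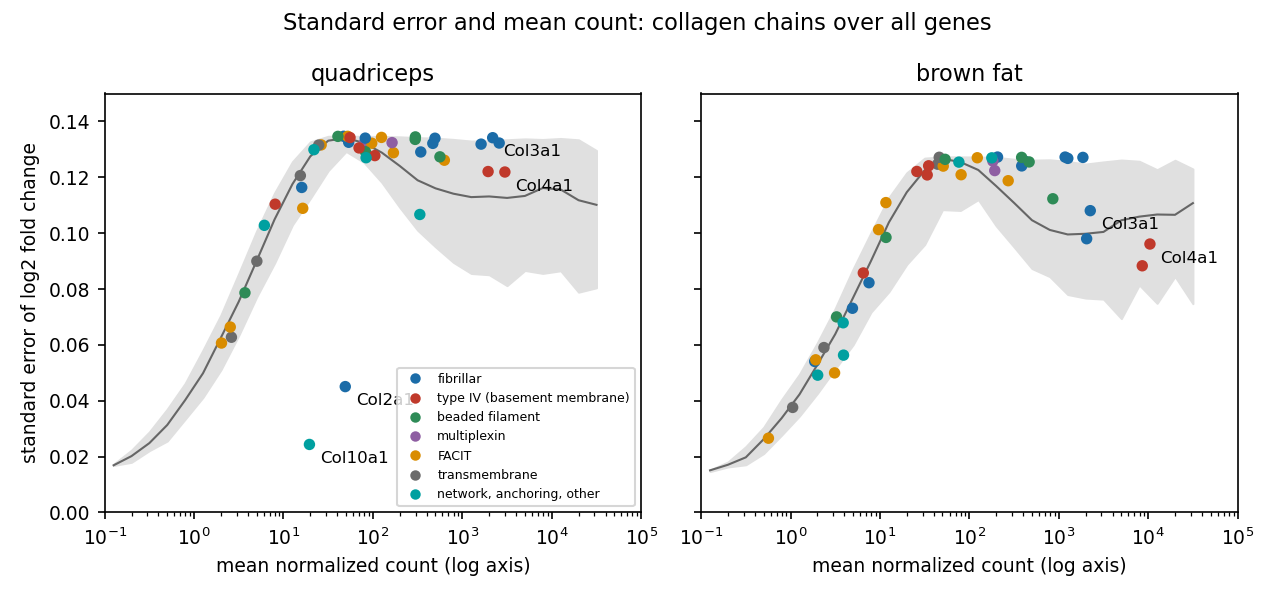
Deposited standard error of the log2 fold change against the mean normalized count (log axis) of the 43 chains, coloured by class, over the median (line) and the 5th to 95th percentile (band) of all genes. In quadriceps Col2a1 (0.0451) and Col10a1 (0.0243) lie far below the band.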

How the data were processed

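The authors deposited, per tissue, a DESeq2-style table of uORF-TAA and wild type. Per the file headers it gives each gene a mean normalized count, treated as a signal over 8 libraries, a log2 fold change with its standard error on the log2 scale, a Wald statistic (a score), a p-value and an adjusted p-value. The submitters' processing notes name STAR 2.5.1b, mm9 and DESeq2 1.10.1 without their roles. The sources used here do not give the read counter or the annotation. The authors' columns have the names that DESeq2 gives, so the deposited test is taken as the authors' DESeq2 test. Per the labels 4 libraries of each genotype were compared in each tissue. The statistic, p-value and adjustment were recomputed from the deposited columns and returned them to rounding. The sign of the brown fat table, which names wild type first, was turned. Depth per library was estimated from the size factors that genes with 1 read in 1 library reveal. Transcript lengths and exons came from GENCODE vM21 (GRCm38) and start sites from RefSeq (GRCm38.p6), and all 43 chains matched by symbol. Levels were scaled to 1000000 summed means and 1000 bases. Named genes were chains with a mean of at least 50 in either tissue, with errors for the 2 of highest mean per class and for those at an unadjusted p under 0.05, and up to 3 members per list with a mean of at least 10. Errors or values of further chains (partners of these, chains with other lowest p-values, scarce members, and Itga2) were added after their values were seen. Mean-count ratios between tissues and the mural list without Des and Abcc9 were added after seeing the data. Members and lists were chosen with earlier results of these data known. Procedures were tested on simulated statistics. Python 3.11.15, pandas 2.3.3 and scipy 1.17.1 were used.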

Additional observations from a re-analysis of the deposited data

How the results depend on the processing

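No collagen chain was called under any alternative run. In each tissue these were adjusted p thresholds of 0.10 and 0.01, adjustment over every gene or only over those whose mean reached 10 or 50, and an empirical null. For the difference between tissues they were a threshold of 0.10, genes with a mean of 10 or more in both, and the opposite reading of the brown fat sign, under which 2 chains in place of 0 had an unadjusted p under 0.05. With an unadjusted p under 0.01, 0 chains were left in quadriceps in place of 1. Under an empirical null at the unadjusted threshold, Col12a1 and Col3a1 made 2 chains in quadriceps, and Col6a3, Col6a2 and Col6a1 made 3 in brown fat in place of 0. The share of brown fat chains above 0 was 72.1% over all 43, 89.7% for means of 10 or more and 90.9% for means of 50 or more. Of 127 alternatives 114 stayed close to the reported value, and class shares by the union of exons, an alternative chosen after seeing the data, were among these. No paired analysis was possible because the tables hold no values per library, and leaving out libraries was not run for the same reason. Shrinkage limits how far small or scarce effects can be read.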

Other observations

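Values by gene pair add a description. The chromosomal neighbours Col4a3 and Col4a4 were at -0.15 and -0.06 in quadriceps and at 0.05 and -0.01 in brown fat in the authors' deposited tables. The start sites of Col4a5 and Col4a6 lie 1343 bases apart in RefSeq (GRCm38.p6), and these genes were at 0.01 and -0.08 in quadriceps and at 0.07 and 0.06 in brown fat. The exon pattern of Col27a1, with 52 of 59 internal coding exons divisible by 9 and 33 of 54 bases, was shared by Col24a1, with 52 of 58 and 33. Col27a1 was 210 times higher in brown fat and Col24a1 10.2 times higher in quadriceps in CPM. Col22a1, Col9a1 and Col2a1 had wider ratios towards quadriceps than Col24a1, and the spread of Col2a1 counts over the libraries was not analysed here.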
